A study of Mus musculus with 14 samples.

Results

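The poly(A) sites described here lie in the Cyp2c cytochrome P450 cluster of mouse chromosome 19, taken as every site on either strand between positions 39050000 and 40300000 of build mm9. A poly(A) site is a place where transcripts are cleaved and given a poly(A) tail, so it marks the 3′ end of an mRNA. Same-strand intervals that overlapped or touched in any library were merged, and this left 125 sites in the interval of 1250 kb, 45 on the plus and 80 on the minus strand, of 159969 sites in the whole series. No merged site crossed an end of the interval. Of the 125 sites, 14 held enough tags to enter the tests and 111 did not.

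The measurements came from 3P-seq, which sequences the 3′ ends of polyadenylated RNA and counts tags at each site. The 14 libraries covered heart, muscle, liver, lung, adipose and kidney, each with 1 library from wild-type and 1 from miR-22 knockout mice, plus 1 library of mouse embryonic stem cells (mESC) and 1 of the fibroblast line 3T3. All carry the background 129S5/SvEvBrd in the labels, which give no age, and the series' design text says that there were no biological replicates. The number of mice behind a library is not stated in the labels. In the tests the 2 libraries of a tissue stood in for replicates, so a p-value measures the spread between single libraries after a common genotype effect.

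CYP2C enzymes are haem proteins of the endoplasmic reticulum that oxidise drugs, steroids and unsaturated fatty acids, arachidonic acid among them, and the liver is the organ they are best known from. In mice the family has grown by gene duplication into a run of neighbouring genes. The reference annotation used here is of build GRCm38.p6, and positions were not carried over from mm9. For this reason no site was assigned to a gene, and the tissue labels could not be checked against marker genes. In that annotation the run between Hells and Pdlim1 holds 14 protein-coding Cyp2c genes and 4 Cyp2c pseudogenes, in the order Cyp2c52-ps, Cyp2c55, Cyp2c65, Cyp2c66, Cyp2c53-ps, Cyp2c29, Cyp2c39, Cyp2c72-ps, Cyp2c38, Cyp2c67, Cyp2c68, Cyp2c40, Cyp2c69, Cyp2c71-ps, Cyp2c37, Cyp2c54, Cyp2c50 and Cyp2c70. Cyp2c70, the last of them, encodes an enzyme that makes muricholic acids, bile acids typical of mice.

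The promoters of these genes are shown as a description of their sequence, and no poly(A) site was tied to a promoter. The RefSeq promoter table of GRCm38.p6 held 14 promoters of 13 of the genes, each with 250 bases before and 50 after the start of transcription. The motif CAAAGTCCA, bound by the liver-enriched nuclear receptor HNF4A, was searched on both strands. It was present in 6 of the 14 promoters (42.9%), against 156 of 32851 promoters in the whole table (0.475%). The motif TATAAA, the core of the TATA box, was searched in the same way and cannot overlap with CAAAGTCCA on either strand. It was present in 10 of the 14 (71.4%) and in 13.6% of all. The 14 promoters include the near-copies named below, so they are not 14 independent sequences for either motif. The windows of 41 bases around CAAAGTCCA read as follows, 5′ to 3′ on the strand of the gene, with the motif in capitals. Their coordinates are of GRCm38.p6 and cannot be set beside the mm9 positions of the sites.
Cyp2c65, chr19:39060874-39060914, plus strand: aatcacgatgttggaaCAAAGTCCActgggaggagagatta
Cyp2c67, chr19:39649143-39649183, minus strand: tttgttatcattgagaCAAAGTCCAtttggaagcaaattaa
Cyp2c68, chr19:39741154-39741194, minus strand: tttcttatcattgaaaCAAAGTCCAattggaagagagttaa
Cyp2c40, chr19:39812835-39812875, minus strand: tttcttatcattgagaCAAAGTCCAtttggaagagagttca
Cyp2c69, chr19:39886820-39886860, minus strand: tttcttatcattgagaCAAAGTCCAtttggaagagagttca
Cyp2c70, chr19:40187326-40187366, minus strand: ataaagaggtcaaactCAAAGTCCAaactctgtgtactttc
The motif ended between 37 and 117 bases upstream of the start. The windows of Cyp2c67, Cyp2c68, Cyp2c40 and Cyp2c69 were alike in each pair at 35 to 41 of 41 bases. All of these are thus near-copies of each other and not independent occurrences. The Cyp2c65 window was alike with them at 22 to 27 of 41 bases. The Cyp2c70 window was alike with the others at 15 or 16 of 41 bases, the motif included. A match is a description of the sequence, and binding was not measured.

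The cluster was used almost wholly in liver. The wild-type liver library held 22742.8 tags in the interval, 0.5412% of its tags, and the knockout liver library 18982.5, or 0.567%. The kidney libraries held 130.5 (0.003454%) and 146.5 tags (0.005145%). The other libraries held between 5 and 32 tags each. Library totals ran from 2036838 to 6010465 tags. Levels are given as CPM, tags scaled to a library of 1000000, with library sizes adjusted by TMM, a method that sets them by the bulk of sites.

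**Figure D1:**
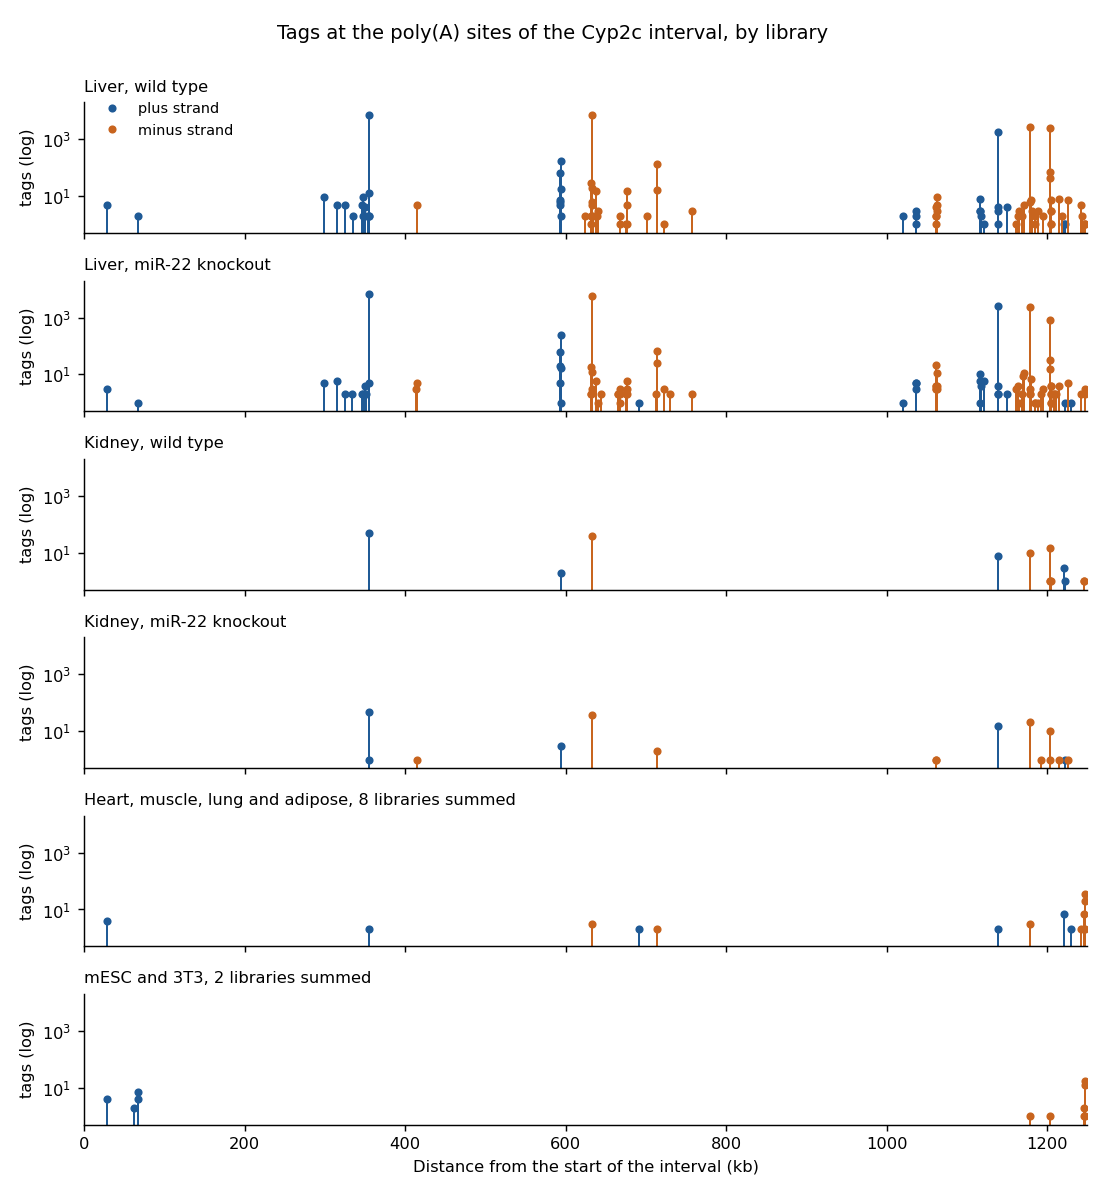
Tags at each poly(A) site of the interval (vertical log axis) against distance from its start in kb (horizontal axis), 1 point per site, blue for the plus and orange for the minus strand. The liver libraries have 5 sites at 846.2 tags or more, the kidney libraries have their most tags at the same 5 sites, and the summed lanes of the other tissues and of the cell lines have their highest points at the right-hand end.

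Within liver, 5 sites carried nearly all tags. They held 96.19% of the interval's tags in the wild-type and 95.75% in the knockout library, and the 10 leading sites held 98.29% and 97.98%. By tags summed over the liver libraries, 5 sites had at least 1000, 4 had from 100 to under 1000, 23 had from 10 to under 100 and 88 had under 10, while 5 sites had none. The 88 sites with under 10 tags together held 0.726% and 0.906% of the tags in the interval. Of the 120 sites with a liver tag, 81 had tags in both liver libraries and 93 had none in any other library. These many low sites mean that most positions of the interval were seen at a depth that allows no comparison.

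The site at 39405180 on the plus strand, 355 kb from the interval's start, led the cluster with 7442.5 tags in wild-type and 6631.5 in knockout liver. Its level was 2078 ± 54.42 CPM (SD over the 2 liver libraries). It ranked 66th of 62147 sites with tags in wild-type liver and 61st of 58620 in knockout liver. The minus-strand site at 39683334 (633 kb) followed with 7268 and 5736 tags, or 1912 ± 113.9 CPM, and ranks of 71 and 70. At both sites each liver library was above every other library. The sites were picked by their liver level, so this was largely set by the pick. These leading positions lie on opposite strands and 278 kb apart.

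The other leading positions lie in the last stretch of the interval. The minus-strand site at 40227855 (1178 kb) had 2754 and 2432.5 tags in wild-type and knockout liver, or 765.7 ± 15.31 CPM. The plus-strand site at 40188435 (1138 kb) had 1845 and 2529 tags, or 656.5 ± 213.3 CPM. The minus-strand site at 40253874 (1204 kb) had 2566.3 and 846.2 tags, or 486.8 ± 306.4 CPM. The order of the last 3 was not the same in the libraries: 40253874 was above 40188435 in wild-type liver and below it in knockout liver. The spread between libraries was small at 40227855 and larger than the difference between the means for the other two.

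The next sites were far lower. The plus-strand site at 39644056 had 171 and 244 liver tags (62.38 ± 21.93 CPM) and the minus-strand site at 39763533 had 131 and 68.3 (28.85 ± 9.97 CPM). The plus-strand site at 39642947 had 63 and 62 tags, 40253780 on the minus strand 68 and 33, and 40253933 on the minus strand 45 and 16. Over the 10 leading sites the liver means thus ran from 2078 down to 8.721 CPM. Tags were absent from long stretches: the widest gap between neighbouring sites ran from 39807625 to 40069726 (262 kb) and the next from 39117186 to 39349474 (232 kb).

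Chaining same-strand sites that lie within 2000 nt gave 49 groups of 3′ ends, of which 7 reached 20 CPM in a tissue, in each case liver. In 5 of these groups the leading site took nearly all tags. Its share of the group's tags in wild-type and knockout liver was 99.75% and 99.92% at 39405180, 99.13% and 99.35% at 39683334, and 99.57% and 99.68% at 40188435. It was 99.42% and 99.43% at 40227855 and 95.25% and 93.07% at 40253874. The other groups were more mixed, with 62.87% and 69.91% at 39644056, whose group of 7 sites spanned 1233 nt and included 39642947. At 39763533 the share was 89.12% in wild-type and 71.67% in knockout liver.

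**Figure D2:**
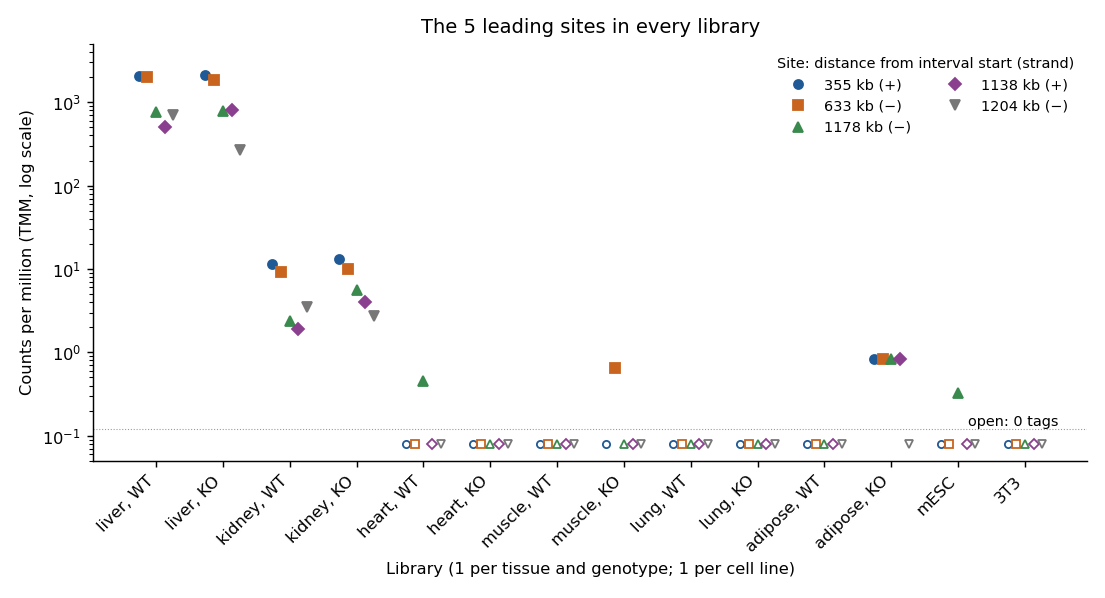
Level of the 5 leading sites (vertical log axis, TMM-scaled CPM) in each of the 14 libraries (horizontal axis); filled points are single libraries and open points at the bottom mark libraries with 0 tags. All 5 sites lie between 270.1 and 2117 CPM in liver and between 1.892 and 13.22 CPM in kidney, and no other library exceeds 0.8234 CPM.

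Against the other tissues, all 14 tested sites were called higher in liver (edgeR quasi-likelihood test, Benjamini-Hochberg adjusted p under 0.05 and at least 4-fold, largest adjusted p 1.17e-08). Of all 23856 tested sites, 13.8% were called in that direction. Most of the 14 sites entered the test through their liver tags, while 3 sites were still tested without the liver pair. The count was thus largely set by the filter and is no support for a rule about the cluster. Each of the 14 had at least 1 tissue with no tag, so fitted fold changes depend on the constant added to counts and are not given. With every tissue at 0 set to a floor of 3 counts over its 2 libraries, the median log2 ratio of liver to the mean of the other 5 tissues was 5.65 (3.21 to 9.77), against -0.47 over all tested sites. In bulk tissue, fewer cells of a type and less RNA per cell cannot be told apart.

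At single sites the bounds were wide apart between tissues, since the floor in CPM follows the TMM-adjusted library sizes and not depth alone. This floor was 0.182 CPM in lung and 0.802 CPM in muscle. Wild-type lung had 4608410 tags, adjusted to 6789980, and wild-type muscle had 4065757, adjusted to 2210010. At 39405180, the liver level was at least 3620-fold higher than that of heart, 2590-fold higher than muscle and 11400-fold higher than lung, tissues with no tag there. At 39683334 it was at least 3350-fold higher than heart and 10500-fold higher than lung. At 39642947, which also had no tag in kidney, the liver level was at least 48.7-fold higher than kidney. Floors and intervals cover counting error only.

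The kidney was the only other tissue with tags at each of the 5 leading sites in both libraries. The site at 39405180 had 48 tags in wild-type and 49 in knockout kidney, or 12.29 ± 1.32 CPM (SD, n = 2). The site at 39683334 had 38.5 and 37.5 tags, or 9.613 ± 0.715 CPM. The counts at the remaining leading sites were small, 10 and 21 at 40227855, 15 and 10 at 40253874, and 8 and 15 at 40188435. Of the 125 sites, 21 had a kidney tag, and 20 of these also had liver tags.

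All 14 tested sites were also called higher in liver than in kidney, where 9.63% of all tested sites were called, and 0 were called higher in kidney than in liver, where 12.1% of all were. Most of the 14 sites entered through their liver tags and 5 of them have no kidney tag. Both counts were thus largely set by the filter and are no support for a rule about the cluster. In this comparison 14 of the 14 had an unadjusted p under 0.05 by edgeR and 6 by DESeq2. The shares of all tested sites under that p are not given. The fitted log2 difference was 7.41 (SE 0.615, adjusted p 1.3e-14) at 39405180 and 7.64 (SE 0.629, adjusted p 9.63e-15) at 39683334. It was 7.65 at 40227855, 7.83 at 40188435 and 7.16 at 40253874. Fitted values of the 5 sites with no kidney tag depend on the constant added to counts. With these sites set at the floor, the log2 ratio of liver to kidney over the 14 ran from 3.596 to 7.798 with a median of 6.73, against a median of -0.08 over the 22755 tested sites with tags in either organ.

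The test mattered for these calls. DESeq2 called 3 of the same 14 sites higher in liver than in kidney, a count with no share over all tested sites beside it. It gave an adjusted p of 0.198 at 39405180, 0.148 at 40188435 and 0.355 at 40253874, with log2 differences of 7.42, 7.85 and 7.24. Over the other 8 alternatives the adjusted p at these sites was at most 1.01e-11, 1.06e-11 and 2.66e-10. At 39683334 and 40227855 DESeq2 gave 5.09e-09 and 1.19e-45, and over the alternatives the adjusted p at these sites was at most 5.09e-09 and 1.53e-11.

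Expressed as a ratio of single libraries, liver exceeded kidney at 39405180 by 180-fold in wild-type (exact 95% interval 135 to 244) and 160-fold in knockout mice (121 to 217). At 39683334 the ratio was 222 (161 to 313) and 179 (130 to 253). It ranged from 198 to 319 at the other leading sites in wild-type mice and from 100 to 199 in knockout mice. The intervals of all 5 sites overlap within each genotype. Counting error thus does not separate the liver-to-kidney ratios of the 5 sites from each other.

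The mix of sites was also similar in the 2 organs, as far as 130.5 and 146.5 tags allow. The site at 39405180 took 32.72% and 34.93% of the interval's tags in wild-type and knockout liver, and 36.78% (95% Wilson interval 29.11 to 45.48) and 33.45% (26.41 to 41.56) in kidney. The site at 39683334 took 31.96% and 30.22% in liver, and 29.50% (22.10 to 37.56) and 25.60% (19.59 to 33.69) in kidney. For 40253874 the shares were 11.28% and 4.458% in liver, and 11.49% (7.118 to 18.17) and 6.826% (3.763 to 12.15) in kidney. At each of these sites the kidney interval holds the liver share of the same genotype.

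**Figure D3:**
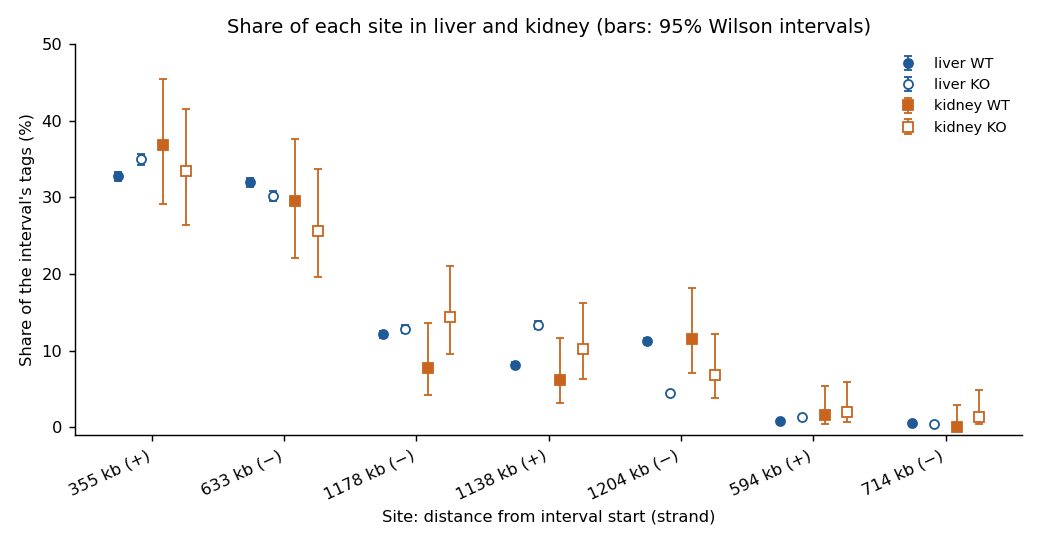
Share of the interval's tags (vertical axis, percent) at the 7 leading liver sites (horizontal axis, by distance from the interval's start), with 95% Wilson intervals, for wild-type and knockout liver and kidney. The sites at 355 and 633 kb hold 25.60% to 36.78% each in all 4 libraries, and the kidney intervals span the liver points at most sites.

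Against the mean of the other 5 tissues on the log scale, 6 of the 14 tested sites were called higher in kidney, against 13.8% of all tested sites. They were the 5 leading sites and 39644056, which had 2 and 3 kidney tags, and their largest adjusted p was 0.0443. This mean includes liver, which is higher, and 4 tissues at or near 0, so the fitted values of 2.18 to 4.65 depend on the constant added to counts. DESeq2 called 2 of the 6, also a count with no share over all tested sites beside it. It gave an adjusted p of 0.339 at 39405180, where the other alternatives gave at most 2.23e-07, of 0.607 at 40188435 (at most 0.0203) and of 0.612 at 40253874 (at most 0.00161). Without the knockout kidney library the adjusted p at 40227855 was 0.0597, and over all alternatives it lay between 0.000101 and 0.0597.

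The kidney level of the 5 leading sites summed was 0.473% of the liver level in wild-type (exact 95% interval 0.392 to 0.566) and 0.614% in knockout mice (0.513 to 0.729). For comparison, 735 other sites of the series were called higher in liver, had at least 50 CPM there, and were higher in both liver libraries than in any library of another tissue. Their median kidney level was 6.79% of the liver level in wild-type and 6.97% in knockout mice, and 88 and 86 of the 735 lay at or below the value of the cluster. The part of liver RNA or liver reads in the kidney tags was not tested.

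In heart, muscle, lung and adipose the leading sites were at or close to 0. The wild-type libraries of muscle, lung and adipose and the knockout libraries of heart and lung had 0 tags at all 5. Wild-type heart had 1 tag at 40227855 and knockout muscle 1 at 39683334. Knockout adipose had 2 tags at each of 39405180, 39683334, 40188435 and 40227855, and 2 more at 39763533. This library was the smallest, with 2036838 tags, and its 8 tags at the leading sites correspond to 0.0568% of the knockout liver level (exact 95% interval 0.0245 to 0.112). The wild-type adipose library had no tag there, with an exact 95% interval that reaches 0.0193%. The median of the 735 other liver-high sites was 1.54% in knockout and 1.22% in wild-type adipose.

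The few tags of heart, lung and wild-type adipose lay mostly at the right-hand edge of the interval. At 40296715 on the minus strand, wild-type and knockout lung had 12 and 9 tags, heart 5 and 1, muscle 2 and 3, and adipose 3 and 0. At 40296935, on the same strand, lung had 9 and 6. The 6 sites in the last 5 kb of the interval, picked after their values were seen, held 22 of the 26 interval tags in wild-type lung and 15 of 20 in knockout lung. In liver these 6 sites held 3 and 5 tags. Pdlim1, the gene that borders the run on this side in GRCm38.p6, is also on the minus strand. Whether these sites are ends of Pdlim1 or of a Cyp2c gene was not tested. The second site by level was 40295662 in heart (1 and 3 tags) and 40270882 in muscle (2 and 2 tags). Outside liver and kidney, most tags thus lay at positions other than the leading sites, except in knockout adipose, where 8 of 10 lay at them.

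The flanks of equal length had another profile. The 1250 kb before the interval held 117 sites and the 1250 kb after it 125. Liver tags were found at 96% of the sites in the interval, 41.0% before it and 47.2% after it. Of the 120 interval sites with liver tags, 88 had under 10, so the 96% rests mostly on low sites. Liver gave 99.12% of the interval's tissue tags, 74.15% of those before and 13.46% of those after. In number, the flank before held more liver tags (46165.1) than the interval (41725.3). In the flanks 13 and 19 sites were tested, and 1 was called higher in liver in each, against 13.8% of all tested sites. Sites with tags in 1 tissue only numbered 95 in the interval, 35 before and 35 after. No test was made of these differences.

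The knockout removes miR-22, a microRNA, which pairs with target mRNAs through its seed and lowers their level. Its main arm is shown with the seed, bases 2 to 8, in capitals, from RefSeq's GRCm38.p6 table.
mmu-miR-22-3p: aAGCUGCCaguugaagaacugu
Target sites were not searched, since the transcripts of the poly(A) sites were not assigned.

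No site of the cluster was called by genotype over the 6 tissues. Of the 14 tested sites, 0 passed an adjusted p of 0.05 by edgeR's quasi-likelihood test, where 0.344% of all tested sites did, 0 had an unadjusted p under 0.05 by edgeR, and 0 by DESeq2. The lowest unadjusted p was 0.06422 at 40253874, with an adjusted p of 0.764. Its fitted log2 difference, knockout minus wild type, was -0.99 (SE 0.523). At 40188435 it was 0.94 (SE 0.501, adjusted p 0.77). Of the 14 fitted differences 8 were positive and 6 negative, with a median of 0.16, against -0.02 over all tested sites. A p above the threshold does not show that the genotypes were alike, and the fit could draw on few tags outside liver.

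Between the liver libraries, 1 against 1 and with no replicate check, the sites moved in both directions. At 40253874 the level was 703.4 CPM in wild-type and 270.1 in knockout liver, a ratio of 0.384 (exact 95% interval 0.3549 to 0.4152). At 40188435 it was 505.7 and 807.3 CPM, a ratio of 1.596 (1.503 to 1.696). The ratio was 1.662 (1.361 to 2.033) at 39644056 and 0.6045 (0.4442 to 0.8164) at 39763533. The 3 most abundant sites had ratios nearer 1, with 1.038 (1.004 to 1.073) at 39405180, 0.9191 (0.8877 to 0.9517) at 39683334 and 1.028 (0.9735 to 1.087) at 40227855. The cluster as a whole had a ratio of 0.972 (0.9534 to 0.991), which turned to 1.048 (1.028 to 1.068) with total counts in place of TMM, a change of scale that moves every liver log2 ratio by 0.108. The sum thus had no direction that held under both scalings, while 40253874 stayed below 1 and 40188435 above 1, at 0.4138 and 1.720.

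**Figure D4:**
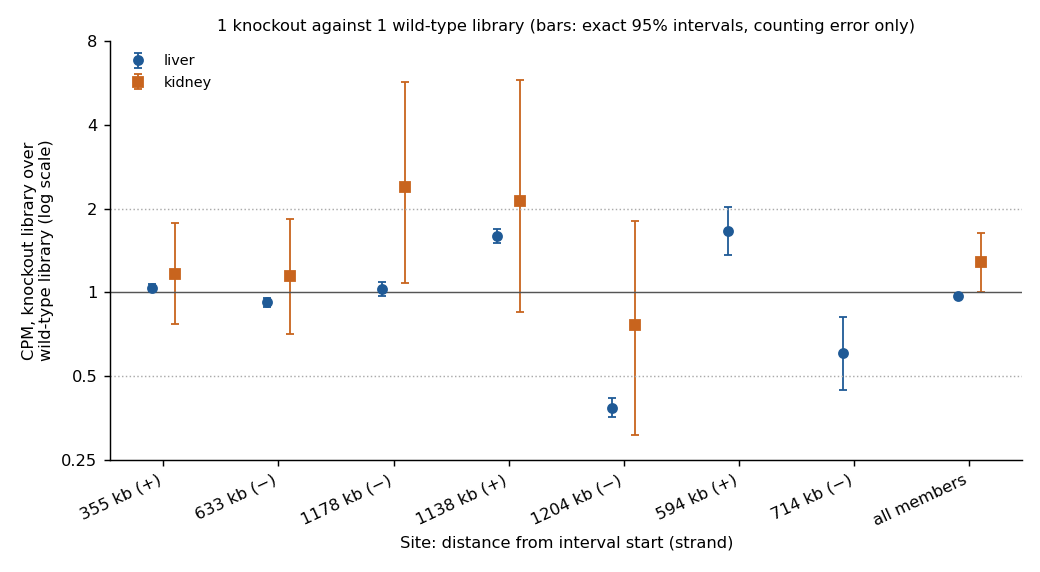
Ratio of CPM in the knockout library to the wild-type library (vertical log axis) for the 7 cluster sites of at least 20 CPM in liver and for all members summed (horizontal axis), in liver and, for the 5 leading sites and the sum, in kidney; bars are exact 95% intervals for counting error, and dotted lines mark 2-fold. The liver ratio of the site at 1204 kb, 0.384, is the one beyond 2-fold in liver.

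Of the 7 cluster sites with at least 20 CPM in liver, 1 differed by 2-fold or more, 40253874. Over all 4530 liver sites of that level 8.23% did, 171 higher and 202 lower in knockout. A ratio as low as that of 40253874 or lower was found at 73 of the 4530 sites, and one as high as that of 40188435 or higher at 393. As shares of the interval's liver tags, 40253874 went from 11.28% (10.88 to 11.70) in wild type to 4.458% (4.172 to 4.760) in knockout, and 40188435 from 8.112% (7.765 to 8.474) to 13.32% (12.85 to 13.81). The intervals do not overlap, but they cover counting error and not the spread between animals.

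Close to 40253874 the tags were too few to follow most sites on their own. Its group of 9 same-strand sites within 1127 nt had 2694.3 tags in wild-type and 909.2 in knockout liver, a ratio of 0.393 (0.3641 to 0.4238), and most of these tags are those of 40253874 itself. Within it 40253780 had 68 and 33 tags and 40253933 had 45 and 16. The remaining 6 sites had 0 to 7 tags in either library, with fewer in knockout at 3 and more in knockout at 3. In kidney the ratio at 40253874 was 0.7604 (0.3055 to 1.809) on 15 and 10 tags and at 40188435 it was 2.139 (0.8512 to 5.825) on 8 and 15 tags. At 40227855 the kidney ratio was 2.395 (1.080 to 5.697) on 10 and 21 tags. No cluster site reached 20 CPM in kidney, and whether the genotype ratio differed between the organs was not tested.

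By the 3′ ends listed for the deposited intervals, the leading sites were of unlike widths. How tags were grouped into an interval is not stated, so an interval may pool tags that end at nearby bases. At 39683334 each liver and kidney library had 1 deposited interval, with the same listed 3′ end. At 39405180 the main end held 87.77% (95% Wilson interval 87.01 to 88.50) of the site's tags in wild-type and 87.2% (86.36 to 87.97) in knockout liver, and an end 20 nt downstream held 10.78% and 12.18%. That end also had 8 of the 48 wild-type and 4 of the 49 knockout kidney tags. At 40227855 the main end held 97.31% and 98.4% in liver.

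The site at 40188435 had its second end 51 nt downstream of the site's position. It held 6.992% (5.915 to 8.247) of the site's tags in wild-type liver, 129 tags, and 12.69% (11.45 to 14.05) in knockout liver, 321 tags. The kidney libraries had 3 tags each at this end, or 37.50% (13.68 to 69.43) and 20% (7.048 to 45.19). The main end was listed 4 nt apart in the liver libraries, at 40188439 in wild type and 40188435 in knockout. A difference of this size between 1 library and 1 library has no replicate check.

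**Figure D5:**
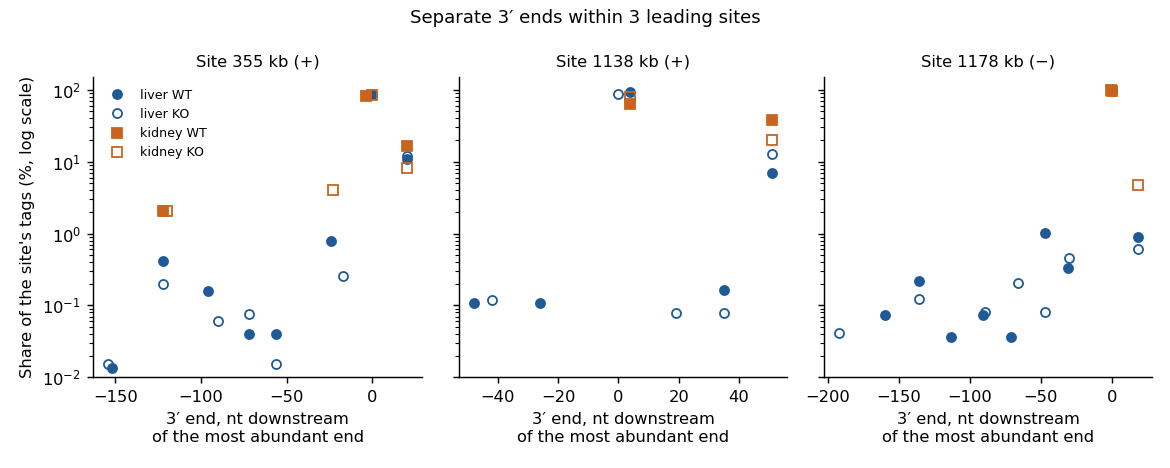
Share of a site's tags (vertical log axis, percent) in each deposited interval, for 3 leading sites in liver and kidney libraries. Intervals are placed by the distance of their listed 3′ end in nt downstream of the site's position (horizontal axis). The second end of the site at 355 kb lies at 20 nt and that of the site at 1138 kb at 51 nt.

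Near-identical gene copies may set a limit on any of these positions, because a tag from one copy could match another. Sequences at the 3′ ends were not compared. The treatment of tags that match several places is not stated in the labels or file headers. Values that were not whole numbers occurred in 10 of the 367 deposited intervals of the cluster (2.72%), against 2.96% of the other intervals. In wild-type liver the share was 1.44% of the cluster's intervals against 2% of the others, and in knockout liver 4.51% against 2.77%. Such intervals carried 11.4% of the cluster's tags in wild-type and 48% in knockout liver. They included the main ends of 39405180 and 40227855 in knockout liver, of 40253874 in both liver libraries and of 39683334 in both kidney libraries. The fractional parts summed to 0.8 tags in wild-type and 2.5 in knockout liver.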

How the data were processed

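Tags were counted by 3P-seq in 14 mouse libraries. Reads were base-called with CASAVA 1.7 and aligned to mm9 with Bowtie, per the submitters' processing notes. The grouping of tags into sites is not stated in the labels or headers. Per site, the authors deposited an unscaled estimated count of tags, rounded here for the tests. In 13 files the track line names mm9 and an offset of 1, which was left unapplied. Positions are 1-based and give the 3′ end of a site's most abundant interval.

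Sites were merged over the libraries. Sites passing filterByExpr (tissue as group, minimum count 10) were scaled by TMM and fitted with edgeR 4.0.16 in R 4.3.3, with terms for tissue and genotype over the 12 tissue libraries and 5 residual degrees of freedom. Tissue calls needed an adjusted p under 0.05 and 4-fold, genotype calls an adjusted p under 0.05, by Benjamini-Hochberg over 23856 sites. The fit was tested on simulated data. DESeq2 1.42.0 was an alternative, along with other scaling, filter, merging and chaining settings and left-out libraries. Ratios within a tissue carry exact binomial 95% intervals, shares Wilson intervals. Tags carry no molecular identifiers.

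The text names the 10 leading liver sites, the 5 leading kidney sites, the 2 leading sites of each other tissue and cell line, and the largest genotype ratios at 20 CPM or more. The members, motifs and lists were chosen with earlier results of these data known. Promoter and miRNA sequences are RefSeq's.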

Additional observations from a re-analysis of the deposited data

Results flagged for a closer look

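The mESC and 3T3 libraries enter no comparison, and both had tags in the interval above the 3 counts that a count of 0 allows. In mESC these were 6 tags at 40296715 and 11 at 40296935. In 3T3 they were 7 at 40296715, 7 at 40296935, 4 at 39078124, 4 at 39117020 and 6 at 39117186. The first pair of positions lies on the minus strand at the right-hand edge of the interval. The other positions lie on the plus strand towards its left-hand end. Whether these tags come from Cyp2c genes or from the bordering genes Hells (plus strand) and Pdlim1 (minus strand) was not tested. Of the 5 leading liver sites, 40227855 had 1 tag in mESC, and 3T3 had 0 tags at all 5.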

How the results depend on the processing

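With DESeq2, 10 of the 14 tested sites were called higher in liver, 3 higher in liver than in kidney (14 with edgeR) and 2 higher in kidney (6 with edgeR); the cause was not tested. Without a filter on low counts, 122 sites were tested, and 45 were called higher in liver and 26 higher in liver than in kidney. The share of all tested sites called is not given for DESeq2, the unfiltered fit or the fits with left-out libraries. Counts under these settings therefore have no background beside them and are no support for a rule about the cluster. Leaving out a liver or kidney library in turn gave 15 to 21 sites higher in liver, 12 to 16 higher in liver than in kidney and 4 to 6 higher in kidney, with 15 to 21 sites tested. Counting nuclear tags only raised the cluster's share to 0.5737% in wild-type and 0.6% in knockout liver. The ratio of all cluster tags in knockout to wild-type liver, 0.972, turned to 1.048 with total counts and 1.046 with nuclear tags only, since total counts shift log2 ratios by 0.108 in liver. Genotype calls numbered 0 under each of the 12 alternatives, with 0 to 3 sites at an unadjusted p under 0.05, and 3 sites were tested without the liver pair. The number of end groups of 20 CPM was 7 at each chaining distance tried. The labels carry no replicate numbers to pair by; the genotype fit pairs the libraries by tissue, and 0 sites were called without the term for tissue too. Depth limits most of the cluster: 111 of its 125 sites were too low to test.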
